A study of Mus musculus with 3 samples.

Results

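The cells described here are tumour epithelial cells with high levels of 6 genes that peak in G2 and mitosis, and they numbered 1834 of the 7620 cells in the series. They came from C3(1)-Tag mice of the FVB background, in which viral T antigen is expressed from the promoter of a steroid binding protein gene and mammary tumours form. Mice were 25 to 30 weeks old, their primary tumours had reached 20 mm, and the tumours of 4 mice were each grown in collagen I or in Matrigel, in DMEM/F12 medium with insulin, transferrin, selenium, antibiotics and 2.5 nM FGF2. Cells were collected 12 hours after plating (called day 0 here), after 3 days and after 5 days, out of collagen with 2 mg/ml collagenase and out of Matrigel with 10 mM EDTA on ice. Each culture received its own lipid-anchored barcode (MULTI-seq), living cells were sorted, and all cultures of a day were pooled into 1 droplet library (10x 3′ version 2) together with 4T1 cells, a BALB/c mammary carcinoma line grown on plastic. Day and pool therefore cannot be told apart, whereas both matrices of a day share a library. Matrix and the way cells were taken out of it cannot be told apart either, on any day. That the first pool is the 12-hour time point was taken from the order of the pool names and the days, not from an explicit statement in the labels.

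In G2 a cell has copied its DNA and accumulates the machinery of division. Cyclin A2 and the B-type cyclins activate the kinase Cdk1, the mitotic kinases Plk1, Aurka and Aurkb drive spindle assembly and chromosome alignment, and the anaphase-promoting complex with Cdc20 and the ubiquitin-conjugating enzyme Ube2c then destroys the cyclins so that the cell can divide. Transcription of these genes is held down in resting cells by the DREAM complex and switched on late in the cycle by B-Myb (Mybl2) with the MuvB core and by Foxm1. In C3(1)-Tag tumours the T antigen binds the retinoblastoma protein and p53, the brakes that normally restrain entry into this programme.

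Members had to carry a collagen or Matrigel label, at least 5000 unique molecular identifiers (UMIs, counted RNA molecules), at least 1 UMI of the epithelial gene Epcam, at least 4 of the 6 proliferation genes Mki67, Top2a, Ccnb1, Cdk1, Cenpf and Ube2c, and at least 10 summed UMIs of these 6 per 10000 UMIs. Of 7307 cells in the matrices 6313 passed the depth and Epcam conditions and are called eligible here. Of these, 1834 were members (420 on day 0, 1025 on day 3 and 389 on day 5), 541 held no UMI of any of the 6 genes (317, 197 and 27) and served as the comparison, and 3938 lay between. Members were chosen by the measured values of these 6 genes, of Epcam and of the total, which are given as a description: 1545 members held all 6, 217 held 5 and 72 held 4. The summed rate had a median of 19.0 per 10000 UMIs, quartiles of 13.6 and 30.7 and a maximum of 154.9. Among members Top2a was detected in 98.3%, Mki67 in 98.2%, Cenpf in 98.0%, Cdk1 in 97.9%, Ube2c in 96.2% and Ccnb1 in 91.8%. The boundary cuts through a continuous range: the nearest member had a rate of 10.01 and the nearest cell with 4 or more of the genes outside had 9.997, with 134 members and 147 non-members within 1 unit of the threshold.

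The label was set beside other cells and other markers. How often other cells met the marker condition is a description, since it uses the genes of the rule. The condition was met by 1 of 192 macrophage-like cells of at least 5000 UMIs (0.521%, exact binomial 95% interval 0.0132 to 2.87%). Of 305 mouse-labelled cells of at least 5000 UMIs without an Epcam UMI, 26 met it (8.5%, interval 5.64 to 12.2%). Among 4T1 cells with Epcam it was met by 38 of 97 on day 0 (39.2%), 22 of 184 on day 3 (12.0%) and 9 of 19 on day 5 (47.4%). The 7 epithelial markers summed to between 3887 and 7086 CPM (the UMIs of a gene scaled to all UMIs of the sum) in member sums per culture, with a median of 5572, and to between 2795 and 15230, with a median of 7220, in cells without a marker UMI. Members were spread over the unsupervised clusters, with 357 of 1834 (19.5%) in a cluster led by Hist1h2ap, Hist1h2ak, Hist1h1b, Ube2c and Cenpf, of which the last 2 are genes of the rule and the histone genes are transcribed in S phase. A further 113 were in a cluster led by Hist1h1b and Hist1h2ap. Members thus include cells with S phase transcripts, and they are called members below rather than by a phase. The comparison cells were less purely epithelial: clusters like macrophages, fibroblasts or T and NK cells held 43 of 541 of them (7.95%) and 1 of 1834 members. The 12 macrophage markers summed to 31.5 to 114 CPM (median 55.3) in members and to 42.9 to 6311 CPM (median 199) in the comparison cells, and the 9 fibroblast markers to 1.51 to 21.9 (median 6.89) against 0 to 602 (median 20.6). Gzmb, Cd8a, Cdh5 and Hbb-bs were at 0 in the members. The cluster of 4T1 cells held 21 members (1.15%) and none of the 541 comparison cells, although all carried a mouse label. Some of the results that rest on the comparison cells are therefore also given without the 3 stromal and immune clusters. Where no such value is printed, the result includes these clusters.

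The share of members was between 7.46 and 48.6% of the eligible cells of a culture. On day 0 it was 23.96, 25.2, 41.3 and 25.0% in collagen for mice 1 to 4, and 13.4, 14.5, 29.4 and 7.46% in Matrigel. Each mouse had the higher share in collagen, but the ranges of the 2 matrices overlapped. The means were 28.9% ± 8.32 (SD, n = 4) and 16.2% ± 9.34 (SD, n = 4), a difference of 12.7 percentage points (two-sided exact permutation test p = 0.114, adjusted p = 0.400 over 7 comparisons, smallest possible p 0.0286). Paired by mouse, 4 of 4 differences in the same direction give the smallest p that 4 pairs allow, which does not reach 0.05.

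On day 3 the shares were 31.2, 31.0, 40.1 and 33.6% in collagen and 26.1, 17.01, 35.6 and 35.7% in Matrigel, and the matrices overlapped. The difference of 5.40 points had an exact permutation p of 0.343, with collagen higher in 3 of 4 mice. On day 5 the shares were 30.2, 23.7 and 41.2% in collagen (mice 1 to 3) and 21.6 and 48.6% in Matrigel (mice 2 and 3), and the difference was −3.41 points (exact permutation p = 1.0). Within Matrigel the share was higher on day 3 than on day 0 in 4 of 4 mice, by 12.4 points (exact permutation p = 0.114), and within collagen the corresponding difference was 5.13 points (exact permutation p = 0.40). Mouse 3 had the highest share in every condition except Matrigel on day 3, where mouse 4 exceeded it by less than the counting error: 128 of 359 cells (exact 95% interval 30.7 to 40.9%) against 37 of 104 (26.4 to 45.6%).

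Because deeper cells meet a rule on detected genes more easily, the shares were also computed after every eligible cell was thinned to 5000 UMIs. On day 0 they then were 15.02, 17.4, 33.3 and 18.3% in collagen and 10.4, 8.42, 21.3 and 4.73% in Matrigel, a difference of 9.79 points in the same direction in 4 of 4 mice (exact permutation p = 0.114). At 3 days the matrices differed by 1.45 points (exact permutation p = 0.686), and the day 0 to day 3 difference in Matrigel was 12.5 points (exact permutation p = 0.0571, adjusted p = 0.400).

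**Figure D1:**
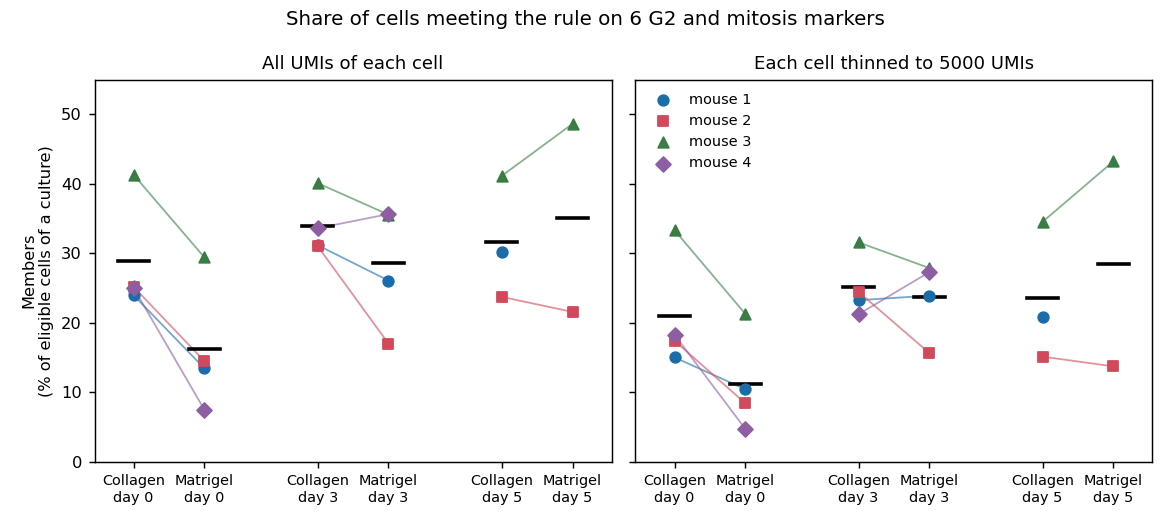
Share of eligible cells that were members (y axis, percent) in each culture by matrix and day (x axis), from all UMIs (left) and after thinning each cell to 5000 UMIs (right). Points are mice, lines join the matrices of a mouse within a day, and black bars are means. On day 0 all 4 mice lie higher in collagen, and the ranges overlap in every comparison.

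Members held more RNA per cell than the comparison cells. With the classes made on thinned counts, so that a cell's own depth did not choose its class, 1396 members and 1731 cells without a marker UMI were left, and members had the higher median in 19 of 19 cultures. The ratio of the medians ranged from 1.11 to 2.02 between cultures, and its mean over the mice was 0.58 ± 0.09 on the log2 scale (SD, n = 4 mice), a 1.49-fold difference (4 of 4 mice, for which an exact paired permutation test cannot go below 0.05). With classes made on all UMIs the log2 ratio was 1.13 and the medians were 25870 UMIs in members against 13756 in comparison cells in collagen on day 0, and 42172 against 22795 in collagen on day 3. No doublet caller was run, and the part of doublets in the higher UMI counts was not tested.

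**Figure D2:**
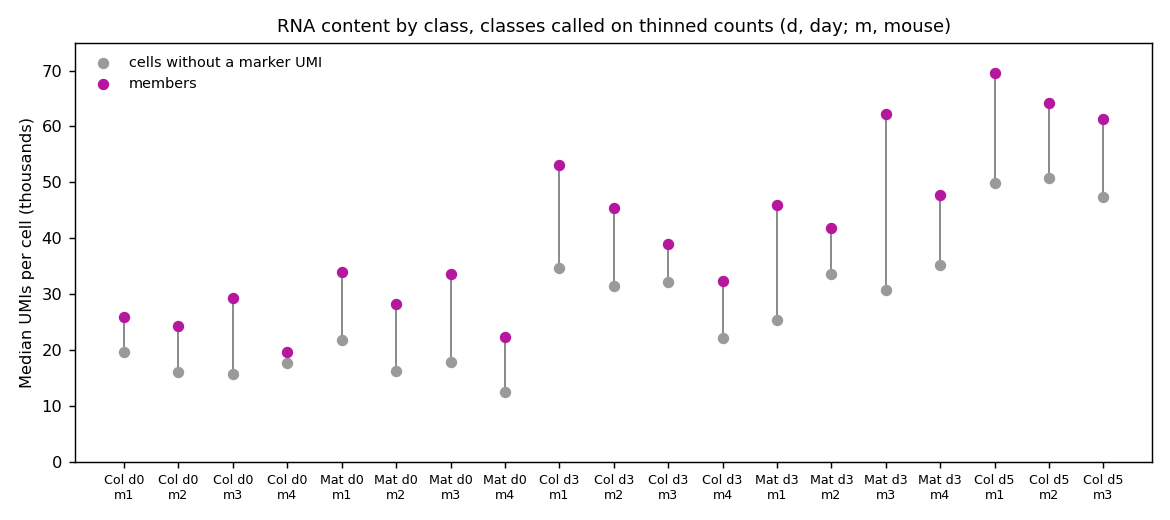
Median UMIs per cell (y axis, linear scale) of members and of cells without a marker UMI in each of 19 cultures (x axis: matrix, day and mouse), with classes made on counts thinned to 5000 UMIs. In all 19 cultures the members lie above, by 1.11 to 2.02 times.

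Gene expression was compared on UMI sums per culture and class, over the 15 cultures with at least 10 cells in both classes (4 in collagen and 4 in Matrigel on day 0, 4 and 2 on day 3, and 1 in collagen on day 5, which has no replicate). The member sums held 614777 to 17006197 UMIs and the comparison sums 147587 to 2273805. These 15 cultures came from 4 mice, and the fit counts each culture as a replicate. Its standard errors and p-values therefore do not measure the spread between mice. Apart from the 6 markers, 1451 of 11520 genes were higher in members (12.6%) and 1081 were lower (9.38%) at an adjusted p under 0.05 in edgeR's quasi-likelihood test with Benjamini-Hochberg adjustment and the culture as a block. With classes on thinned counts 1609 of 11027 were higher (14.6%) and 2071 lower (18.8%), and without the stromal and immune clusters 1273 of 11097 were higher (11.5%) and 1164 lower (10.5%). DESeq2 called 1108 genes higher and 1438 lower, and the thinned classes also gave more lower than higher calls.

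The other genes of the division machinery, which vary together with the 6 markers and so describe the class without testing it, made up 9 lists with 112 genes. Of these, 104 were higher and 2 were lower in members, with a median log2 difference of 3.36 against 0.05 over all genes tested. The lists stood at different heights. Kinesins and spindle proteins (21 of 21 genes higher, median 4.59), mitotic kinases (12 of 12, median 4.62) and centromere, kinetochore and passenger complex genes (16 of 16, median 4.56) were highest. Condensin and chromosome structure genes (14 of 14, median 2.19), cyclins and Cdk1 regulators (9 of 11, median 2.11), checkpoint and anaphase-promoting complex genes (11 of 11, median 1.65) and tubulins and stathmin (8 of 9, median 1.18) were intermediate, and the transcription factor list was lowest (7 of 10, median 0.73).

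Among the cyclins, Ccna2, which carries cells from S phase into mitosis, was at 147, 182 and 279 CPM (lowest, median and highest of 15 cultures) in members and at 0, 3.17 and 9.72 in comparison cells. Ccnb2, another B-type cyclin that the rule did not use, was at 32.1, 116 and 289 CPM against 0, 1.22 and 11.6. For both genes every member sum lay above every comparison sum. Pooled over the cultures the Ccna2 ratio was 49.2 (95% counting interval 35.5 to 70.3, 11912 UMIs against 36) and the Ccnb2 ratio 35.9 (25.8 to 51.6). These intervals cover counting error only. Cdc25c, the phosphatase that removes the inhibitory phosphates from Cdk1, had 18.4, 27.7 and 35.7 CPM against 0, 1.06 and 6.88. Wee1, the kinase that places them, was at 13.8, 29.8 and 44.2 CPM against 6.97, 20.6 and 35.6, and Cdc25a, a related phosphatase, at 15.7, 26 and 50.8 against 4.63, 20.6 and 44.8; both overlapped.

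The kinases were nearly absent from the comparison cells. Aurkb, the catalytic subunit of the chromosomal passenger complex, was at 70.5, 92.5 and 113 CPM in members and at 0, 0 and 3.50 in comparison cells, with a pooled ratio of 105.5 (53.5 to 245; 8 UMIs in all comparison cells). Plk1 was at 33.3, 69.9 and 98.4 against 0, 0 and 4.48, and Aurka at 53.7, 70.9 and 119 against 0, 1.97 and 13.8. None of these ranges overlapped. The passenger subunit Birc5 (survivin) reached 253, 360 and 474 CPM against 4.48, 11.8 and 24.4, and the centromeric histone Cenpa 158, 286 and 417 against 4.48, 8.99 and 18.5. Both were among the most abundant division genes and were separated in every culture.

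Of the spindle genes, Nusap1, which bundles microtubules at chromosomes (chr2:119618298-119651244, plus strand, GENCODE vM21 on GRCm38), was at 64.9, 113 and 154 CPM against 0, 0 and 5.25, and the hyaluronan and microtubule binding protein Hmmr (chr11:40701395-40733422, minus strand) at 63.1, 101 and 137 against 0, 0 and 4.77. Their pooled ratios were 67.9 (41.8 to 119) and 89.9 (51.4 to 174). Kif18b, a kinesin that trims microtubule ends, rested on 2 UMIs in the comparison cells against 1115 in members, a ratio of 82.9 with an interval of 22.9 to 685. With so few comparison UMIs, Kif18b and Aurkb entered the fit through the member sums. The ratios given for division genes describe classes that the rule made with genes varying together with them, and test nothing. Cdc20, the activator of the anaphase-promoting complex, was at 105, 194 and 262 CPM against 1.97, 15.8 and 48.6, a ratio of 12.5 (10.6 to 14.8). Its level in the comparison cells was above that of Plk1 or Aurkb.

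In the cytokinesis list, Ect2, the exchange factor that sets the cleavage furrow, was at 62.0, 83.6 and 115 CPM against 0, 6.94 and 19.1, and Cep55, which recruits the abscission machinery, at 43.3, 63.0 and 79.6 against 0, 3.54 and 9.72. The 2 lower genes of the 112 were both in this list. The GTPase Rhoa was at 362, 460 and 1042 CPM against 402, 681 and 1584, lower in 15 of 15 cultures by 0.43 ± 0.07 (log2, SE, adjusted p = 8.9e-05), although without the culture block its adjusted p was 0.068. The myosin light chain kinase Mylk, also a smooth muscle gene, was at 0.899, 2.39 and 5.63 CPM against 0, 13.9 and 73.0 (log2 −2.53 ± 0.45, adjusted p = 0.000269), lower in 12 of 15 cultures.

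**Figure D3:**
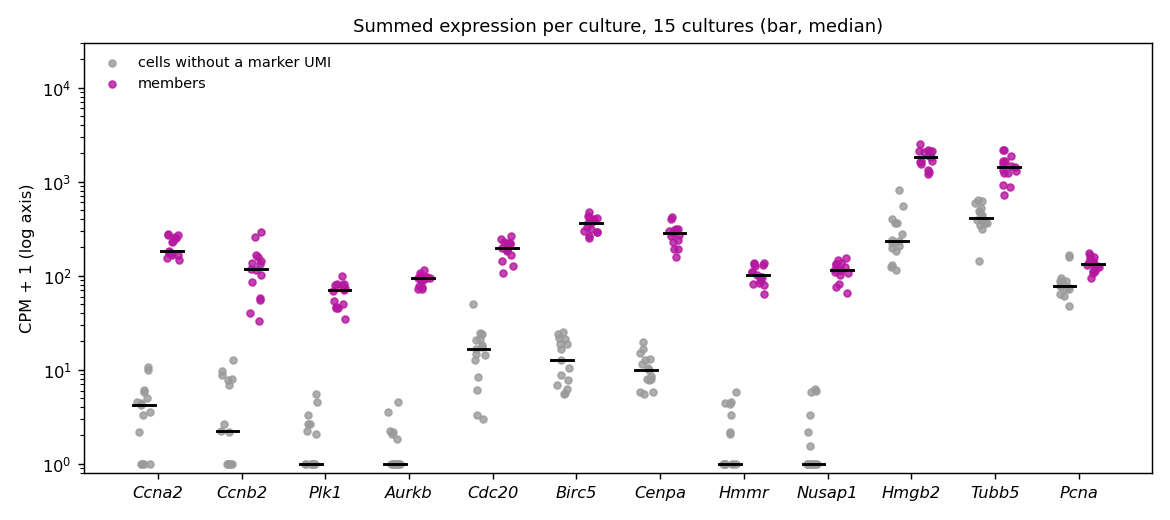
CPM plus 1 (y axis, log scale) of 12 genes (x axis) in the summed members and the summed comparison cells of each of 15 cultures; points are cultures and bars are medians. For every gene except Pcna the members lie above all comparison sums.

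At a fixed 5000 UMIs a cell, Ccna2 was detected in 58.7% of members, 3.99% of cells without a marker UMI and 0% of macrophage-like cells (0 of 192 cells), Birc5 in 80.6, 12.0 and 5.73%, Cenpa in 64.0, 7.92 and 8.85%, and Plk1 in 29.1, 0.751 and 1.04%. The median depth before thinning was 43623, 27304 and 15108 UMIs. The shares of Plk1 and Cenpa in the comparison cells were below those in macrophage-like cells, and the shares of Ccna2 and Birc5 were above. Whether these shares are background or low expression was not tested. The summed UMIs of the 112 genes per thinned cell had a median of 111 in members (5th to 95th percentile 67.0 to 184) and 38.0 in comparison cells, where the 95th percentile was 71.0.

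Genes of the late cell cycle share promoter elements: the cell cycle genes homology region, whose core letters are TTTGAA and which the MuvB core binds, and CCAAT boxes, which NF-Y binds. The promoters of 2 genes of the rule and of 4 members of the lists are shown, 5 because both elements can be read in them and Aurka because it holds CCAAT alone, 150 bases each from 130 before to 20 after the annotated start, from RefSeq on GRCm38.p6. Capitals mark TTTGAA and CCAAT on either strand (TTCAAA and ATTGG when reversed).
Cdk1, chr10:69352893-69353042, minus strand: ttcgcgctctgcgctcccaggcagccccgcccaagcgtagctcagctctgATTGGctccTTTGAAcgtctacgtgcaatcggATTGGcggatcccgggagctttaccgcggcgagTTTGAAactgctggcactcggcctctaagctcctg
Ube2c, chr2:164769799-164769948, plus strand: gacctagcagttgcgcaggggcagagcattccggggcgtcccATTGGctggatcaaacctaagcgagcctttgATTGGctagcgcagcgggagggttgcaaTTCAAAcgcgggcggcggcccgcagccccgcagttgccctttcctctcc
Ccnb2, chr9:70421535-70421684, minus strand: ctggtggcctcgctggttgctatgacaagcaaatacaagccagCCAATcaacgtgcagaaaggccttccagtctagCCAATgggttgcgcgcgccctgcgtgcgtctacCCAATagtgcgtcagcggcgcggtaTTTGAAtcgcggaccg
Cdc20, chr4:118437324-118437473, minus strand: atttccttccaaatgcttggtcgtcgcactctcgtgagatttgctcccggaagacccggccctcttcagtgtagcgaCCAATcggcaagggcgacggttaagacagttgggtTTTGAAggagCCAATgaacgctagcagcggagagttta
Hmmr, chr11:40733418-40733567, minus strand: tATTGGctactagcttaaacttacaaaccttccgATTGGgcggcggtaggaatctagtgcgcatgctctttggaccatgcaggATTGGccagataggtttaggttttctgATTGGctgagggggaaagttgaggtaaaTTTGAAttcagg
Aurka, chr2:172370551-172370700, minus strand: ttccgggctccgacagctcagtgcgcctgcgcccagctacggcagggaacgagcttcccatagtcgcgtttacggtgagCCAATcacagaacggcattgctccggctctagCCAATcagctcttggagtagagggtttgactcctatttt
Cdk1 holds TTTGAA at 2 places and CCAAT at 2 within this window. Ube2c, Ccnb2, Cdc20 and Hmmr hold TTTGAA at 1 place each, with 2, 3, 2 and 4 CCAAT matches. Aurka holds 2 CCAAT matches and these letters of TTTGAA are not in its window.

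Over the RefSeq windows of 250 bases before to 50 after each start, 91 of the 112 genes could be matched. TTTGAA on either strand was in 52 of them (57.1%) and in 20.2% of all 27025 genes of that table. CCAAT on either strand was in 72.5% against 41.1%, at 2 or more places in 41.8% against 13.3%, and both elements together (TTTGAA with at least 2 CCAAT) were in 31.9% against 2.81%. Within the lists TTTGAA was in 16 of 19 matched kinesin and spindle genes, 8 of 10 condensin and chromosome genes and 4 of 10 mitotic kinases, and in 3 of 21 genes of S phase and replication. A match describes letters in a window, not a bound site.

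Members also carried transcripts of DNA replication, and how these compared depended on how the classes were made. Of 25 genes of S phase and replication 15 were higher in members and 2 lower (median log2 0.72), but with classes on thinned counts 8 were higher and 10 lower (median 0.02). Rrm2, a subunit of ribonucleotide reductase, was at 199, 241 and 406 CPM in members against 3.94, 24.3 and 47.4, higher without overlap in 15 of 15 cultures and by 1.56 (log2) on thinned classes. Pcna, the replication clamp, was at 93.2, 131 and 172 CPM against 46.3, 76.2 and 165 (log2 0.67 ± 0.11, adjusted p = 7.48e-05), overlapping between the classes, and with thinned classes it differed by −0.11 (adjusted p = 0.19). Gins2, a part of the replicative helicase complex, was at 16.0, 32.1 and 66.3 CPM against 23.1, 57.1 and 119 (log2 −0.99 ± 0.14, adjusted p = 2.16e-05), and Ung, which removes uracil from DNA, at 8.10, 25.2 and 45.0 against 20.6, 57.8 and 143 (log2 −1.47 ± 0.17). Both kept their sign on thinned classes, at −1.46 and −2.35. Per thinned cell the 25 genes summed to a median of 13 UMIs in members and also 13 in comparison cells.

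Histone genes of S phase are outside that list, and 2 of them are given here because they lead the clusters of members named above. The linker histone Hist1h1b was at 28.1, 84.4 and 529.6 CPM against 0, 3.35 and 17.9, without overlap (log2 5.62 ± 0.18, 5.24 on thinned classes). The H2A gene Hist1h2ap was at 72.9, 188 and 4398 CPM against 0, 5.91 and 102, overlapping over the cultures but higher in 15 of 15 (log2 5.88 ± 0.21). At a fixed 5000 UMIs it was detected in 69.8% of members, 8.55% of cells without a marker UMI and 5.21% of macrophage-like cells, and in 30.6% of members on day 0, 82.0% on day 3 and 75.7% on day 5. Histone genes are near-identical copies, so their reads may be split between them.

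The regulators of the late cycle itself were measurable at low levels. Foxm1 was at 31.3, 46.5 and 63.8 CPM in members against 0, 3.50 and 13.8, and Mybl2 at 24.3, 43.0 and 57.1 against 0, 6.97 and 22.9; neither overlapped. The chromatin protein Hmgb2 was at 1200, 1804 and 2528 CPM against 114, 233 and 820, and the tubulin gene Tubb5 at 725, 1446 and 2159 against 142, 410 and 642. Of 14 CDK inhibitors and exit genes 3 were higher and 2 lower. Cdkn2d (p19), an inhibitor of Cdk4 and Cdk6, was higher without overlap, at 30.9, 77.1 and 268 CPM against 0, 10.5 and 27.6 (log2 2.64 ± 0.21, adjusted p = 3.62e-09), as was Cdkn1b (p27) with overlap, by 0.66 ± 0.13 (adjusted p = 0.000882). Cdkn1a (p21), a p53 target, was at 195, 518 and 1072 CPM against 83.3, 411 and 1153 and did not pass (log2 0.25 ± 0.14, adjusted p = 0.244), but it was higher by 0.56 without mouse 4 (adjusted p = 0.0052) and by 0.40 without the stromal and immune clusters (adjusted p = 0.043). Of 8 G1 cyclins and growth genes Ccnd1 was higher by 0.71 ± 0.17 (adjusted p = 0.00468) but not on thinned classes (0.00) or without the 4T1 cluster (0.19, adjusted p = 0.37), and Myc was lower (log2 −0.64 ± 0.17, adjusted p = 0.00778), with adjusted p of 0.064 without mouse 2 and 0.077 without mouse 4.

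Genes of protein import into the nucleus and of the nuclear envelope were largely higher, 9 of 11, with a median of 0.64. Kpna2, an importin alpha, was at 24.8, 67.7 and 209 CPM against 2.54, 17.7 and 45.5 (log2 2.09 ± 0.17, adjusted p = 1.05e-08), and Rangap1, which sits on nuclear pores and on kinetochores, at 88.8, 161 and 193 against 43.5, 55.04 and 97.2 (log2 1.42 ± 0.11). Of 20 genes of cholesterol synthesis 9 were higher and none lower (median 0.45), but on thinned classes 2 were higher and 1 lower, and without the stromal and immune clusters 1 and 1. Fdps, which makes farnesyl diphosphate, was higher in the comparison on all UMIs (log2 0.66 ± 0.12, adjusted p = 0.000428) and differed by −0.0017 on thinned classes, by 0.04 without mouse 2 and by 0.09 without mouse 4.

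Some basal and myoepithelial genes were lower in members. Of 13 basal genes 5 were lower and none higher (median log2 −1.07), with 11 of 12 tested lower on thinned classes and 11 lower without the stromal and immune clusters. Krt5, a keratin of basal cells, was at 0.574, 15.02 and 572 CPM in members against 3.48, 148 and 3216, lower in 13 of 15 cultures (log2 −3.66 ± 0.65, adjusted p = 0.000294). Krt14 was at 312, 542 and 1914 CPM against 383, 1560 and 8417 (log2 −1.16 ± 0.21, adjusted p = 0.000349, lower in 14 of 15), and Krt17 at 121, 304 and 671 against 296, 937 and 4396 (log2 −1.62 ± 0.17, adjusted p = 4.28e-07, lower in 15 of 15). The ranges over the cultures overlapped for all 3 keratins, and the difference lay within cultures. Trp63, the transcription factor of basal cells, was at 0.574, 9.45 and 32.1 CPM against 3.94, 26.9 and 140 (log2 −1.51 ± 0.49, adjusted p = 0.0315), with an adjusted p of 0.097 without the culture block, 0.092 without mouse 1 and 0.066 without mouse 3.

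Of 9 contractile genes of myoepithelial cells 4 were lower and none higher (median −2.67), with 7 of 8 lower on thinned classes and 7 lower without the stromal and immune clusters. Acta2, smooth muscle actin, was at 0, 0.594 and 239 CPM in members against 0, 36.5 and 2164 (log2 −6.69 ± 0.54, adjusted p = 3.37e-08), lower in 11 of 15 cultures and higher in 2. Myl9, a myosin light chain of smooth muscle, was at 0, 0.658 and 32.0 CPM against 0, 6.08 and 231 (log2 −4.09 ± 0.94, adjusted p = 0.00335). Fibroblasts and pericytes express these genes too, and fibroblast markers were also more abundant in the comparison cells. Without the stromal and immune clusters the differences were −7.83 for Acta2 and −4.86 for Myl9. The part of stromal cells in these differences was not tested.

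Of 10 luminal genes tested 3 were lower and none higher. Krt8 was at 374, 801 and 1431 CPM in members against 498, 1102 and 2564 (log2 −0.44 ± 0.13, adjusted p = 0.0178; 0.24 without the culture block), and the tight junction gene Cldn4 at 20.9, 90.9 and 255 against 18.5, 145 and 775 (log2 −1.35 ± 0.16, adjusted p = 2.24e-06). Epcam, which the rule used as a threshold of 1 UMI, was at 1208, 1890 and 2685 against 862, 1619 and 3041, and Cdh1 (E-cadherin) did not pass (log2 −0.09 ± 0.15, adjusted p = 0.741), but was lower without the stromal and immune clusters (log2 −0.40, adjusted p = 0.027). Vim, a mesenchymal filament gene, did not pass either (log2 0.12 ± 0.37, adjusted p = 0.876). It depended on which cells were in the sums, at −1.10 without the 4T1 cluster (adjusted p = 0.0067) and 1.96 without the stromal and immune clusters (adjusted p = 2.6e-05).

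Some genes of stress and metabolism were lower in members. Hmox1, the heme-degrading stress enzyme, was at 32.7, 88.3 and 533 CPM against 64.8, 195 and 2513, lower in 15 of 15 cultures (log2 −1.65 ± 0.19, adjusted p = 1.06e-06; −1.08 without the stromal and immune clusters), and the nuclear RNA Neat1 was at 113, 256 and 462 against 411, 707 and 2339, also lower in 15 of 15 (log2 −1.66 ± 0.16, adjusted p = 7.17e-08). Of 20 hypoxia and glycolysis genes 8 were lower and none higher (median −0.37), with 14 lower on thinned classes. Among them Aldoa was at 225, 320 and 788 CPM against 267, 671 and 1362 (log2 −0.81 ± 0.13), and the angiogenic factor Vegfa at 6.25, 50.6 and 76.2 against 13.9, 55.04 and 138 (log2 −0.67 ± 0.16, adjusted p = 0.00323; 0.0996 without mouse 2). Of 16 genes of the unfolded protein response 7 were lower and none higher, with 2 lower without the culture block. Dnajb9, an ER chaperone partner, was at 16.1, 24.1 and 79.1 CPM against 29.8, 61.9 and 262, lower in 15 of 15 cultures (log2 −1.33 ± 0.16).

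Of 18 interferon response genes 9 were lower and none higher (median −0.73), with 6 lower without the stromal and immune clusters and 4 without the culture block. Irf7, a regulator of this response, was at 0, 22.9 and 48.8 CPM in members against 3.48, 80.2 and 427 (log2 −2.05 ± 0.28, adjusted p = 1.45e-05), but without the stromal and immune clusters it differed by −0.85 and did not pass (adjusted p = 0.063). Isg15 was at 47.2, 174 and 424 CPM against 38.3, 281 and 1114 (log2 −0.64 ± 0.20, adjusted p = 0.027), at −0.75 without those clusters (adjusted p = 0.0053) and −0.26 on thinned classes (adjusted p = 0.32), with an adjusted p of 0.085 without the culture block. Macrophage markers moved with this list, 10 of 12 being lower in members (median −5.08), and their part in it was not tested beyond these values.

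**Figure D4:**
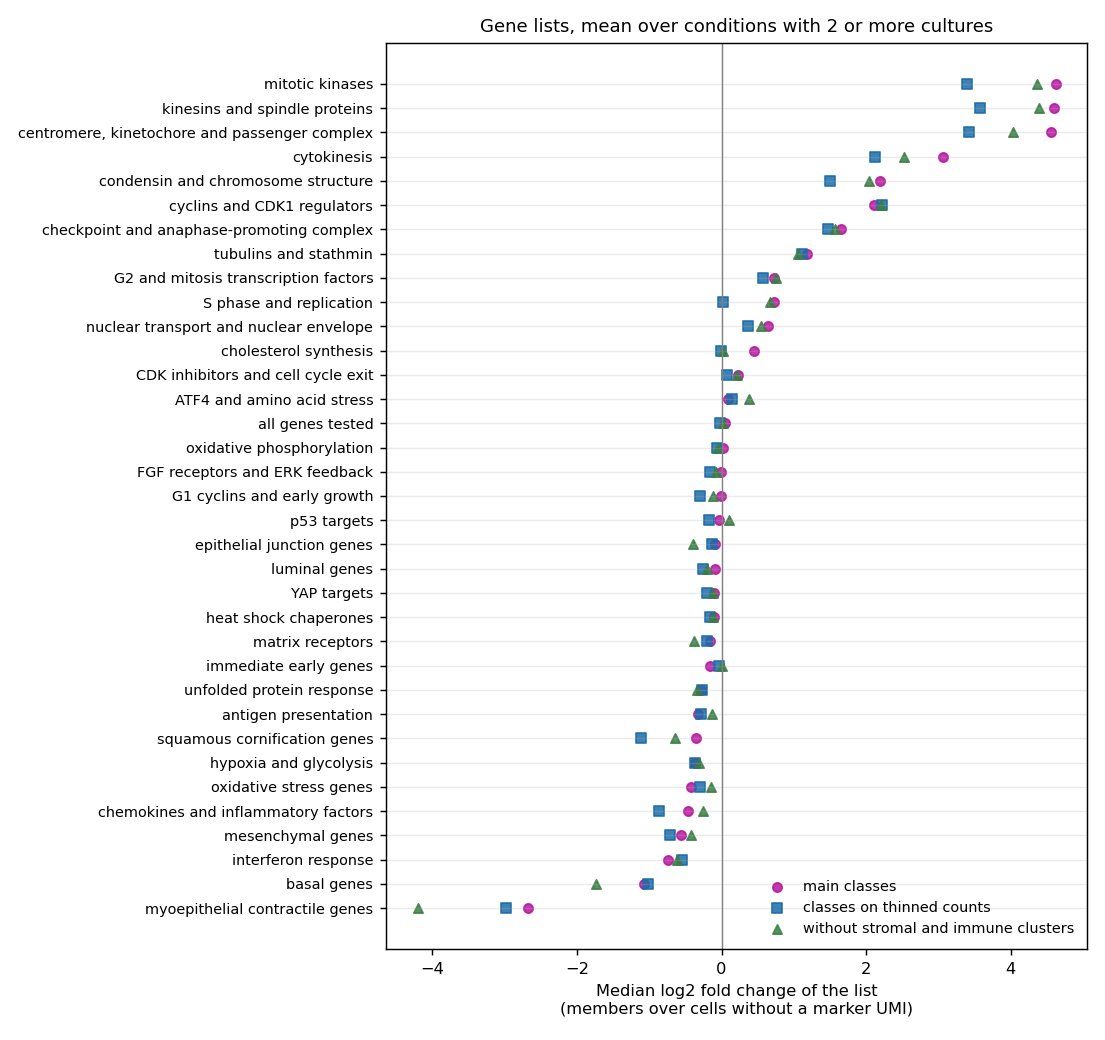
Median log2 difference of each gene list between members and comparison cells (x axis; lists on the y axis, ordered by the comparison on all UMIs), for classes on all UMIs, classes on thinned counts and without the stromal and immune clusters. The mitotic lists lie to the right under all 3, the myoepithelial and basal lists to the left, and S phase genes move from 0.72 to 0.02 on thinned counts.

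The contrast between members and comparison cells was then compared between conditions. Within conditions the called share was 7.45% in collagen on day 0 (858 genes), 10.5% in Matrigel on day 0 (1212), 9.9% in collagen on day 3 (1141) and 3.13% in Matrigel on day 3 (361, 2 cultures). The difference of the contrast between matrices had 0 called genes on day 0 (0.0%; 704 at an unadjusted p under 0.05 in edgeR, 4 called by DESeq2) and 1 on day 3 (0.00868%), Fxyd3, a regulator of the sodium pump. Between days it had 2 in collagen (0.0174%), Shcbp1 and H2-Aa, and 0 in Matrigel (0.0%; 760 at an unadjusted p under 0.05, 10 called by DESeq2). None of the 112 mitotic genes was among those called by edgeR. Both classes were set by the marker genes in every condition, and the mitotic genes vary together with these markers. The rule may thus hold their contrast alike, so the missing calls cannot decide whether it differed between conditions.

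Within the members, collagen and Matrigel could be compared on genes outside the rule. There were 21 sums with at least 10 members (4 and 4 mice on day 0, 4 and 4 on day 3, 3 and 2 on day 5). They held 536528 to 17006197 UMIs. In each of these comparisons the matrix cannot be told apart from the way cells were taken out (collagenase, or EDTA on ice). On day 0 collagen had 55 higher genes of 10908 (0.504%) and 29 lower ones (0.266%). The same animals gave the cultures of both matrices, and a fit that blocks on the animal called 378 higher (3.47%) and 324 lower (2.97%). Without the block the count of 84 became 14 without mouse 1, 0 without mouse 2, 4 without mouse 3 and 71 without mouse 4.

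Of 12 genes that answer oxidative and electrophile stress, 3 were lower in collagen on day 0 and none was higher, and 8 were lower in the blocked fit. Hmox1 was at 71.5, 53.9, 89.6 and 91.7 CPM in collagen for mice 1 to 4, and at 465, 449, 522 and 537 in Matrigel. The matrices did not overlap (log2 −2.69 ± 0.34, adjusted p = 0.001015). Gclm, the regulatory subunit of the enzyme that starts glutathione synthesis, was at 252, 211, 321 and 182 CPM against 828, 708, 875 and 419 (log2 −1.55 ± 0.21, adjusted p = 0.001015), again without overlap. Both passed without any single mouse except mouse 2.

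Of 16 interferon genes tested 3 were higher in collagen on day 0 and none lower (9 higher in the blocked fit), and of 11 antigen presentation genes 5 were higher and none lower (8 in the blocked fit). Zbp1, a sensor of nucleic acids, was at 33.96, 33.8, 46.5 and 37.0 CPM in collagen and 1.19, 3.75, 6.34 and 2.38 in Matrigel (log2 3.28 ± 0.52, adjusted p = 0.004582), without overlap. Ifitm3, an antiviral membrane protein, was at 625, 830, 664 and 384 CPM against 146, 221, 208 and 139 (log2 1.81 ± 0.38, adjusted p = 0.03522). Psmb8, a subunit of the immunoproteasome, was at 216, 231, 180 and 173 CPM against 62.4, 67.5, 76.7 and 87.0 (log2 1.46 ± 0.24, adjusted p = 0.004582). All 4 collagen values lay above all 4 Matrigel values in each of these genes. The antigen presentation genes that passed include Psmb8, Psmb9 and the peptide transport genes Tap2 and Tapbp. Zbp1 lost its call without mouse 1 or mouse 2, Ifitm3 without mouse 1, 2 or 3, and Psmb8 without mouse 2 or mouse 3.

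On day 3, 6 genes were higher in collagen (0.055%) and 1 was lower (0.00917%), against 150 (1.38%) and 85 (0.779%) in the blocked fit. Fbln2, a matrix protein of basement membranes and elastic fibres, was at 401, 297, 412 and 277 CPM in collagen and at 107, 169, 129 and 108 in Matrigel (log2 1.44 ± 0.24, adjusted p = 0.02133), without overlap. P4ha1, which hydroxylates collagen chains, was at 29.6, 21.5, 21.7 and 21.0 CPM against 17.2, 5.97, 6.43 and 8.37 (log2 1.49 ± 0.26, adjusted p = 0.02496), and Nt5dc2 at 104, 117, 91.9 and 99.4 against 45.1, 31.9, 38.6 and 59.1 (log2 1.21 ± 0.22). Neither overlapped. Fbln2 lost its call without mouse 1, 3 or 4, P4ha1 in each leave-out and Nt5dc2 without mouse 1, 2 or 3. The count was 0 without mouse 1 or mouse 3, 1 without mouse 2 and 26 without mouse 4.

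On day 5, with 3 collagen and 2 Matrigel cultures, the calls were 39 higher in collagen (0.358%) and 17 lower (0.156%), and 294 (2.7%) and 243 (2.23%) in the blocked fit. Fn1 (fibronectin) was at 590, 433 and 662 CPM in collagen and at 62.3 and 80.8 in Matrigel (log2 2.97 ± 0.51, adjusted p = 0.01957), and Inhba, the subunit of activin A, at 382, 259 and 414 against 30.0 and 67.8 (log2 2.82 ± 0.63, adjusted p = 0.04989). Of 14 matrix receptor genes Cd44, Itgav and Sdc1 were higher and none lower: Cd44, a hyaluronan receptor, was at 289, 261 and 280 CPM against 70.4 and 107 (log2 1.63 ± 0.36, adjusted p = 0.04803). Lower in collagen was Sfrp1, a secreted Wnt antagonist, at 13.7, 20.1 and 27.0 CPM against 113 and 116 (log2 −2.45 ± 0.47, adjusted p = 0.02444). None of these 4 genes overlapped between the matrices. The 2 Matrigel sums held 11 and 18 cells, and on thinned classes, where 1 Matrigel sum was left and is assumed to vary like the other groups, 2 genes were higher (0.0178%) and 6 lower (0.0535%), and Fn1 had an adjusted p of 0.1291. Fn1 lost its call without mouse 2 or 3, and Inhba, Cd44 and Sfrp1 without mouse 1, 2 or 3. The count was 5 without mouse 1, 0 without mouse 2, 1 without mouse 3 and 166 without mouse 4, which gave no day 5 culture and enters through the shared spread.

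**Figure D5:**
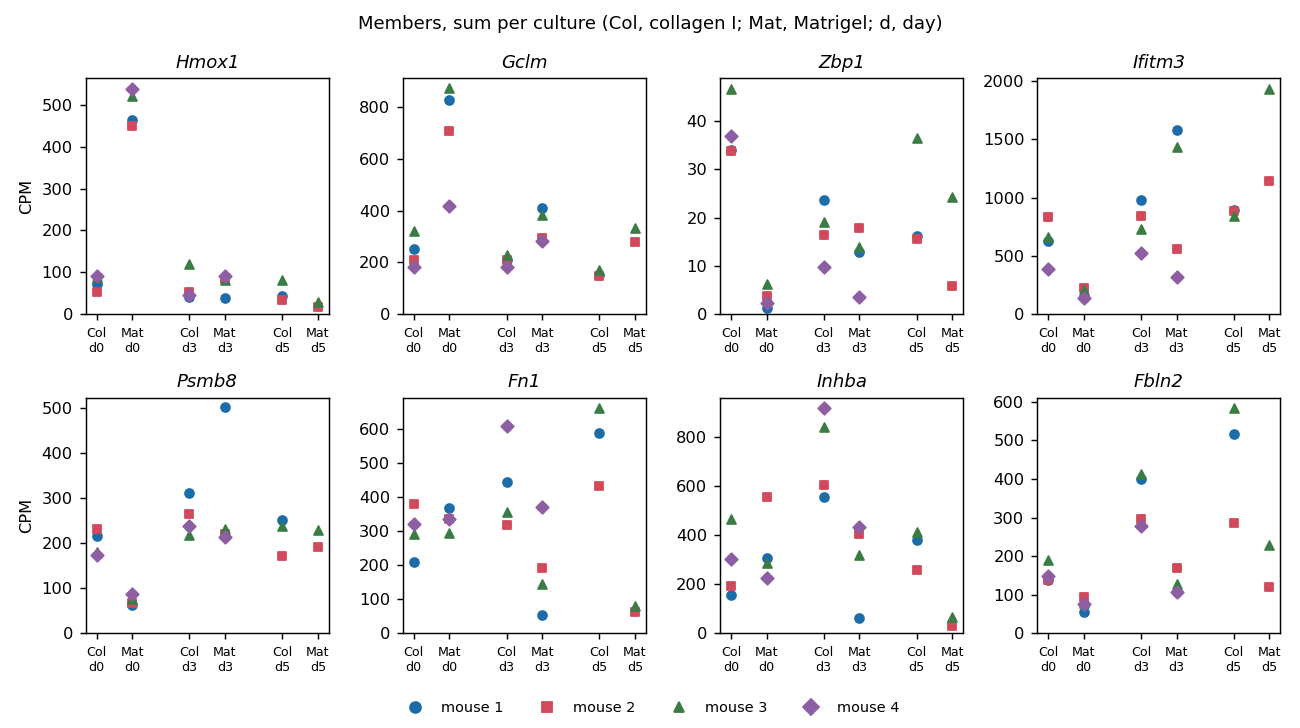
CPM (y axis) of 8 genes in the summed members of each culture, by matrix and day (x axis); points are mice. On day 0 Hmox1 and Gclm lie lower and Zbp1, Ifitm3 and Psmb8 higher in collagen without overlap, and on day 5 Fn1 and Inhba lie higher in collagen.

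Whether division genes were called between matrices depended on the fit. Of the 112 mitotic genes edgeR without the block called 0 on day 0, 0 on day 3 and 0 on day 5, with 19, 3 and 14 at an unadjusted p under 0.05, while DESeq2 called 1, 0 and 1. The fit that blocks on the animal called 8 higher in collagen on day 0, 1 lower on day 3 and 1 higher on day 5. Over all genes that fit called 3.47% higher on day 0, 0.779% lower on day 3 and 2.7% higher on day 5. The median log2 difference of the 112 genes was 0.10, −0.05 and −0.14 on the 3 days, beside 0.01, −0.01 and 0.03 over all genes tested. Failing the test does not show that these genes were equal. Members of both matrices had to pass the same threshold on the marker genes, with which these genes vary together. The rule may thus hold their levels alike, and the comparison cannot decide whether division genes differ between the matrices.

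Between days the members differed widely, and whether by time or by pool cannot be told apart. From day 0 to day 3 the fit called 856 genes higher (7.85%) and 678 lower (6.22%) in collagen (1632, 15%, and 1387, 12.7%, in the blocked fit), and 1662 (15.2%) and 1450 (13.3%) in Matrigel (2204, 20.2%, and 2066, 18.9%, in the blocked fit). In cholesterol synthesis 17 of 20 genes were higher in collagen (median 1.15) and 19 of 20 in Matrigel (median 1.58), and none was lower. Fdps was at 102 to 154 CPM on day 0 and 556 to 673 on day 3 in collagen (log2 2.17 ± 0.18), and at 59.5 to 115 and 549 to 795 in Matrigel (log2 2.93 ± 0.18), without overlap in either. Idi1, the isomerase upstream of it, was at 55.1 to 91.6 and 153 to 216 CPM in collagen (log2 1.42 ± 0.22, adjusted p = 0.00026). In Matrigel 10 of 15 immediate early genes and 9 of 14 genes of the ATF4 stress response were lower on day 3, none and 1 higher. Egr1 was at 580 to 1253 CPM on day 0 and 142 to 314 on day 3 (log2 −1.99 ± 0.36, adjusted p = 0.00035), and Atf3 at 104 to 187 and 2.15 to 30.1 (log2 −2.82 ± 0.47, adjusted p = 0.00018). The collagen counts were 2 lower and 1 higher of 15, and 5 lower and 1 higher of 14, and the difference between the matrices in this change was not tested.

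Of the mitotic lists, 7 of 112 genes were higher and 8 lower in collagen from day 0 to day 3 (11 and 19 in the blocked fit), and 19 and 10 in Matrigel (24 and 15). From day 3 to day 5 the unblocked fit called 46 genes higher (0.422%) and 32 lower (0.293%) in collagen, and 94 (0.862%) and 83 (0.761%) in Matrigel. The blocked fit called 283 (2.59%) and 384 (3.52%) in collagen and 317 (2.91%) and 376 (3.45%) in Matrigel. Of the 112 mitotic genes the unblocked fit called 2 higher in collagen and 6 higher in Matrigel, the blocked fit called 14 and 15, and neither called one lower. The same threshold on the marker genes applied on each day, so these counts do not measure how the mitotic genes changed over all eligible cells. The linker histone Hist1h1b, a histone made in S phase, was at 236 to 522 CPM on day 3 and 59.2 to 84.6 on day 5 in collagen (log2 −2.36 ± 0.32, adjusted p = 0.0004), and at 448 to 608 and 81.9 to 114 in Matrigel (log2 −2.41 ± 0.39, adjusted p = 0.003; 0.405 without mouse 2), without overlap in either matrix. At a fixed 5000 UMIs Ccnb2 was detected in 22.8% of members on day 0, 46.7% on day 3 and 52.0% on day 5, and Ccna2 in 62.2, 53.9 and 67.8%.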

How the data were processed

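Deposited values are UMI counts per gene and cell with a table of cell labels (mouse, matrix, 4T1), made by the authors with Cell Ranger 3.0.2 and Scanpy 1.4.4 on GRCm38/mm10, per the submitters' processing notes; all 39668312 entries were whole numbers. The cell labels also hold a fraction of mitochondrial UMIs per cell as the authors computed it, which was used in no test. Cell numbers were 2961, 3463 and 1196 on days 0, 3 and 5, with median UMIs of 16177, 38122 and 55454, and 11 cell barcodes occurred in more than 1 library.

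Cells were clustered with Scanpy 1.11.5 and leidenalg 0.10.2 (2000 variable genes, 30 components, 15 neighbours, resolution 1, 24 clusters), and clusters were named only from marker lists. UMIs were summed per culture and class with at least 10 cells, and tested with edgeR 4.0.16 (quasi-likelihood, TMM, Benjamini-Hochberg over all genes tested, adjusted p under 0.05), with the culture as a block between classes and no block within members. Shares needed 20 eligible cells and were compared with exact two-sided permutation tests over cultures. Same-mouse sums deviated together (median correlation 0.234 over 46 pairs, against −0.072 between mice), and for 20 of 21 sums the closest sum of another condition came from the same animal. The cell labels name the same animals in both matrices and on different days (mice 1 to 4 on days 0 and 3, no culture of mouse 4 on day 5). A printed n counts animals, whereas the fit between classes counts cultures of the same animal as separate replicates. Intervals are 95% and cover counting error only. On simulated counts with the class comparison's design 76.8% of genes changed 2-fold and 96.0% of those changed 4-fold were recovered. With the day 0 matrix design these were 36.0% and 96.0%. The simulated dispersion (spread beyond counting error) was 0.08, against common values of 0.0372 and 0.0683 in the 2 real fits. No mouse or culture effect was simulated, so the recovered shares do not cover such effects.

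The members and gene lists were chosen with earlier results of these data known. Genes named from the fits are the 10 highest and 10 lowest with at least 20 CPM and the same sign in every culture, up to 4 in each list with the smallest p, and 5 each way within members. Wee1, Cdc25a, Cdc25c, Gins2, Ung, Cdkn1b, Trp63, Isg15, Rhoa, Psmb8, Psmb9, Tap2, Tapbp, Cd44, Itgav, Sdc1, Idi1, Egr1 and Atf3, Hist1h1b and Hist1h2ap, Fdps between days, and the promoters shown, were chosen after their values were seen. Alternatives were DESeq2 1.42.0, other size factors, filters and depth minima, thinned classes, and leaving out mice or clusters.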

Additional observations from a re-analysis of the deposited data

Results flagged for a closer look

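In 105 groups of 4 cultures over the named genes, and in the groups of shares, a culture far from the others was looked for, which chance gives in about 1 of 20 groups. The share of members in collagen on day 0 stood apart at 41.3% in mouse 3. Single cells carried most of several high values: Apoe at 174.4 CPM in Matrigel on day 0 (mouse 2, 268 of 279 UMIs in 1 cell), Iapp at 103.9 CPM in Matrigel on day 3 (mouse 3, 193 of 194 UMIs), P3h3 at 159.4 CPM in collagen on day 0 (mouse 3, 269 of 274), Tslp at 85.78 CPM in Matrigel on day 0 (mouse 4, 60 of 72), Tmem213 at 298.4 CPM in Matrigel on day 3 (mouse 1, 102 of 139) and Cbr2 at 60.1 CPM in Matrigel on day 3 (mouse 1, 18 of 28). Also high were P4ha1 at 29.56 CPM in mouse 1 (21.0 to 21.7 in the other mice) and Hist1h1a at 80.84 CPM in mouse 4 (29.5 to 37.1), both in collagen on day 3, and Wdr74 was low in Matrigel on day 0 at 11.91 CPM in mouse 4 (27.4 to 30.0). In 4 groups a low value stood beside 0 in the other mice: Cbr2 at 1.191 and Muc15 at 1.191 CPM (mouse 4) and Iapp at 0.6251 CPM (mouse 2) in Matrigel on day 0, and Vsnl1 at 0.6567 CPM in Matrigel on day 3 (mouse 4).

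The difference between members and comparison cells itself differed between conditions for 3 genes in edgeR's test of that difference. Fxyd3 differed between the matrices on day 3 (log2 −3.1796, adjusted p = 0.033), at −2.27 in collagen and 0.91 in Matrigel. Shcbp1, a protein of the dividing cell's midbody, differed between days in collagen (log2 4.8927, adjusted p = 0.0128), and H2-Aa, an MHC class II gene of immune cells, likewise (log2 16.8304, adjusted p = 0.000172). The H2-Aa value rested on 282 UMIs in 1 of the 130 members of mouse 1 in collagen on day 3.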

How the results depend on the processing

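For single genes, 2426 of 2761 alternative values kept direction and call, 304 lost the call, 15 gained it and 16 turned sign. The cause of these shifts was not tested. Turned values (log2) were Ccnd2 0.60 and Zeb2 0.12 without the stromal and immune clusters, Lgals1 −0.043 and Vim −1.10 without the 4T1 cluster, Fdps −0.013 with sums of at least 20 cells, and, on thinned classes, Fdps −0.0017, Cyp51 −0.12, Phgdh −0.016, Pcna −0.11 and Pmvk −0.068. Without 1 mouse Pmvk ranged from −0.081 (mouse 4; −0.057 without mouse 2) to 0.73 (mouse 1). It was −0.19 with sums of at least 20 cells and −0.21 with cells of at least 10000 UMIs, where Klf6 was 0.076 and Dusp1 0.082.

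Between classes the number of genes called was 798 in Matrigel on day 0 without the stromal and immune clusters, 760 in collagen on day 3 without the replicate block, and in Matrigel on day 3 960 on thinned classes and 652 with no filter on low counts. For the matrix difference of the contrast on day 0 it was 4 by DESeq2, 3 with cells of at least 10000 UMIs, 131 with no filter, 7 with sums of at least 20 cells, 1 without the 4T1 cluster and 1 without the stromal and immune clusters. On day 3 it was 8 by DESeq2, 0 on thinned classes, 129 with no filter and 0 without the replicate block. For the day difference in collagen it was 0 by DESeq2, 0 with at least 10000 UMIs, 4 thinned, 117 with no filter, 0 without the replicate block, 1 with at least 20 cells, 4 without the 4T1 cluster and 4 without the stromal and immune clusters, and in Matrigel 10 by DESeq2, 11 thinned, 145 with no filter and 5 without the 4T1 cluster.

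Within members, collagen against Matrigel, day 0 gave 230 by DESeq2, 47 thinned, 702 with the replicate block, 132 with at least 20 cells and 151 without the 4T1 cluster. Day 3 gave 81 by DESeq2, 25 with no filter and 235 with the replicate block, and day 5 160 by DESeq2, 8 thinned and 537 with the replicate block. Collagen day 3 against day 0 gave 3019 with the block. Day 5 against day 3 gave 259 by DESeq2 and 667 with the block in collagen, and 307 by DESeq2, 15 thinned, 112 with no filter and 693 with the block in Matrigel. At 20 marker UMIs per 10000 the day 0 share differed by 8.43 points (exact permutation p = 0.0286, the smallest possible, adjusted p = 0.2 over 7 comparisons). The log2 ratio of UMIs on classes from all UMIs was 1.13.

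Leaving out 1 mouse gave 1651 to 2982 genes for the class mean, 349 to 1027 and 427 to 1353 in collagen on days 0 and 3, 637 to 1075 and 314 to 320 in Matrigel, and 1 to 4, 0 to 3, 0 to 8 and 0 to 1 for the differences of the contrast. Within members it gave 0 to 71, 0 to 26 and 0 to 166 between matrices on days 0, 3 and 5, 543 to 1713 and 10 to 110 between days in collagen, and 1792 to 3024 and 4 to 149 in Matrigel. Shares differed by 11.03 to 13.4, 2.53 to 7.88 and −13.0 to 5.41 points between matrices, 3.96 to 7.23 and −4.97 to 0.713 between days in collagen, and 7.12 to 15.7 and −4.68 to 16.2 in Matrigel. Thinned, these were 8.54 to 11.5, −1.003 to 3.95 and −15.6 to 4.26, then 2.75 to 6.08 and −5.00 to 2.33, and 9.10 to 14.4 and −8.56 to 16.9. The log2 ratio of UMIs per cell, members over comparison cells on thinned classes, was 0.54 to 0.60. Comparison cells were shallower and few on day 5 (27), which limits low genes, and a miss there is not an absence.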

Other observations

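The list of ATF4 and amino acid stress genes was split between the classes, with 4 of 14 higher in members and 1 lower (median log2 0.08). Psat1, an enzyme of serine synthesis, was at 67.1, 114 and 169 CPM in members (lowest, median and highest of 15 cultures) against 27.6, 53.3 and 152 in comparison cells, higher in 14 of 15 cultures (log2 1.12 ± 0.16, adjusted p = 2.213e-05, 0.60 on thinned classes). Mthfd2, a mitochondrial folate enzyme, was at 120, 237 and 294 CPM against 62.5, 110 and 295, higher in 12 of 15 (log2 0.61 ± 0.11). Phgdh, another enzyme of serine synthesis, was higher by 0.53 ± 0.10 (log2, adjusted p = 0.000585) but differed by −0.016 on thinned classes. The classes overlapped for all 3. Among 14 p53 targets 2 were higher and 3 lower: Mdm2, which degrades p53, was at 64.0, 184 and 508 CPM against 50.9, 103 and 411 (log2 0.71 ± 0.22, adjusted p = 0.0231, but 0.08 on thinned classes), and Perp, a membrane protein of desmosomes, was at 89.2, 153 and 243 against 172, 345 and 515, lower in 14 of 15 cultures (log2 −0.94 ± 0.14).

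Some genes of the members differed between pools in both matrices alike. Nme2, a nucleoside diphosphate kinase, was at 7.14 to 11.8 CPM in all day 0 sums, 289 to 659 on day 3 and 222 to 275 on day 5, and Cdk2ap1 ran the other way between the first pools, at 118 to 206, 13.4 to 26.4 and 74.7 to 116. No 2 pools overlapped for Nme2, and day and pool cannot be told apart.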
